A study of Mus musculus with 12 samples.

Results

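The semaphorins, ephrins, netrins and slits are secreted or cell-surface guidance cues, and together with their plexin, neuropilin, Eph and Robo receptors they were measured by bulk RNA-seq in mouse fibroblasts exposed to cytokines. Members were chosen by symbol alone: every row whose symbol names a semaphorin of classes 3 to 7, a plexin, a neuropilin, an Eph receptor, an ephrin, a netrin, Slit1 to Slit3 or Robo1 to Robo4 was taken, without regard to its values. This gave 64 of the 56941 genes in the count table, of which 47 had enough counts to be tested, beside 14810 tested genes in all. The remaining 17 are described by their counts only.

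Semaphorins act through plexins, whose cytoplasmic part switches off small GTPases and so loosens adhesion and the actin cytoskeleton. The secreted class 3 semaphorins mostly need a neuropilin as the binding partner of a plexin A receptor, whereas membrane semaphorins bind plexins directly. Ephrins are themselves membrane-bound, and contact with an Eph receptor tyrosine kinase on a neighboring cell sends a signal into both cells. Netrins attract or repel through DCC, neogenin and UNC5 receptors, and slits repel through Robo receptors. All were first studied in growing axons, and in skin and connective tissue the same molecules take part in nerve and vessel patterning, fibroblast migration and boundary formation.

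The cells were 3T3-L1, an established line of wild-type mouse embryonic fibroblasts that can be induced to become adipocytes. There were 4 conditions of 3 libraries, all harvested at 24 hours. Control cells received vehicle, and IL-4/13 cells received 50 ng/mL each of IL-4 and IL-13. Inf stands for a mixture of 20 ng/mL TNF-α with 50 ng/mL IL-17A plus 0.5 ng/mL IL-1β, and the last condition, IL-4/13 + Inf, received all 5 cytokines. All 12 libraries carry 1 batch label. This is 1 cell line in monoculture, with no nerve, vessel or epithelium, and the labels do not say whether the 3 libraries of a condition came from separate cultures, so p-values measure only the spread between these libraries. In bulk RNA, fewer cells expressing a gene and less RNA per cell cannot be told apart.

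Library totals ran from 13446005 to 20775769 counts, and the 64 members together took between 0.21% and 0.28% of them. Levels are given as CPM, which are counts per 1000000 counts of the tested genes after scaling for composition, and a gene was called changed at an adjusted p below 0.05 in edgeR's quasi-likelihood test with a log2 fold change beyond 0.25 in either direction. No pair of libraries agreed within sampling noise. Inf replicate 3 stood apart from the other Inf libraries, with a chi-square per degree of freedom of 8.15 and 8.53 against them where other replicate pairs ran from 2.27 to 4.64. Without it, the members called numbered 15 for IL-4/13 against control, 28 for Inf against control, 23 for IL-4/13 + Inf against Inf, 28 for IL-4/13 + Inf against IL-4/13 and 9 for the interaction, beside 13, 31, 19, 28 and 6 with it. All 10 fibroblast markers were tested, and their summed level ran from 14650 to 16700 CPM in control, 12660 to 13330 in IL-4/13, 12660 to 13680 in Inf and 10640 to 10880 in IL-4/13 + Inf. These markers therefore moved with the conditions too. With Inf alone, 4 of the 10 were called higher and 4 lower, 80.0% beside 31.6% of all tested genes. Among them Dcn, a matrix proteoglycan, went from 103 to 1756 CPM and Vim from 3625 to 2332. The 6 adipocyte markers and the 4 T cell markers never exceeded 3 counts in a library. Summed levels of the other lists stayed below 8 CPM in every library. The keratinocyte markers reached 6.18 CPM, carried by Krt10, while Krt5 and Krt1 were at 0 counts in all 12 libraries. The endothelial markers reached 1.64 CPM, with Emcn at 0 counts and Cdh5 called higher with Inf, from 0.119 to 0.851 CPM. The Schwann and glial markers reached 1.76 CPM, with Sox10 at 0 counts. The macrophage markers reached 6.52 CPM, with Adgre1 and Itgam at no more than 1 count and Mrc1 called higher with Inf, from 0.181 to 2.11 CPM. The neuron markers reached 7.32 CPM, carried by Tubb3, which was called lower with Inf in 13 of 19 alternatives. The part of these marker changes, and of whatever sets Inf replicate 3 apart, in the results was not tested.

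Of the membrane and secreted cues and their receptors, every family had at least 2 tested members. Compared per kilobase of the longest annotated transcript, the most abundant members in control were the plexin Plxnb2 at 66.6 ± 4.4 CPM per kb (SD, n = 3), Nrp1 at 47.8 ± 2.6, the transmembrane ephrin Efnb2 at 41.0 ± 2.1 and the receptor Epha2 at 36.5 ± 2.2. They were followed by Nrp2 at 34.4 ± 2.8 and Plxna1 at 32.8 ± 3.5, and the spreads of these last 3 overlap. Per kilobase of coding sequence instead, Efnb2 came first at 195 CPM per kb and Nrp2 (82.7) stood above Plxnb2 (78.3) and Nrp1 (62.9), so this order depends on the length used. Among the cues, Sema7a led the membrane semaphorins at 21.5 ± 0.90 and Sema4b came next at 8.36 ± 0.16, Sema3a led the secreted ones at 14.7 ± 0.54 ahead of Sema3f at 12.2 ± 1.1, and Efna1 led the GPI-anchored ephrin A genes at 20.7 ± 0.65 ahead of Efna4 at 12.1 ± 0.73. Per kilobase of coding sequence, Sema5a (17.8) stood above Sema4b (13.4) and Efna5 (34.9) above Efna4 (31.2). The pair Slit2 (12.8 ± 1.1) and Slit3 (12.02 ± 1.1) did not differ beyond their spread. Ntn1 stood at 6.47 ± 0.37, well above Ntn3 at 0.788 ± 0.19. The EphB receptors were led by Ephb4 at 27.7 ± 0.90, ahead of Ephb3 (8.40) and Ephb2 (8.39), which were level per transcript kilobase, while per coding kilobase Ephb2 (30.9) stood above Ephb3 (13.4). Efnb1 at 9.53 ± 0.78 was second among the ephrin B genes. Behind Epha2, Epha3 and Epha4 both stood at 1.99, and per coding kilobase Epha4 (4.26) was above Epha3 (3.83). The Robo receptors were the scarcest of the families, with Robo2 at 0.797 ± 0.037 and Robo1 at 0.403 ± 0.041.

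**Figure D1:**
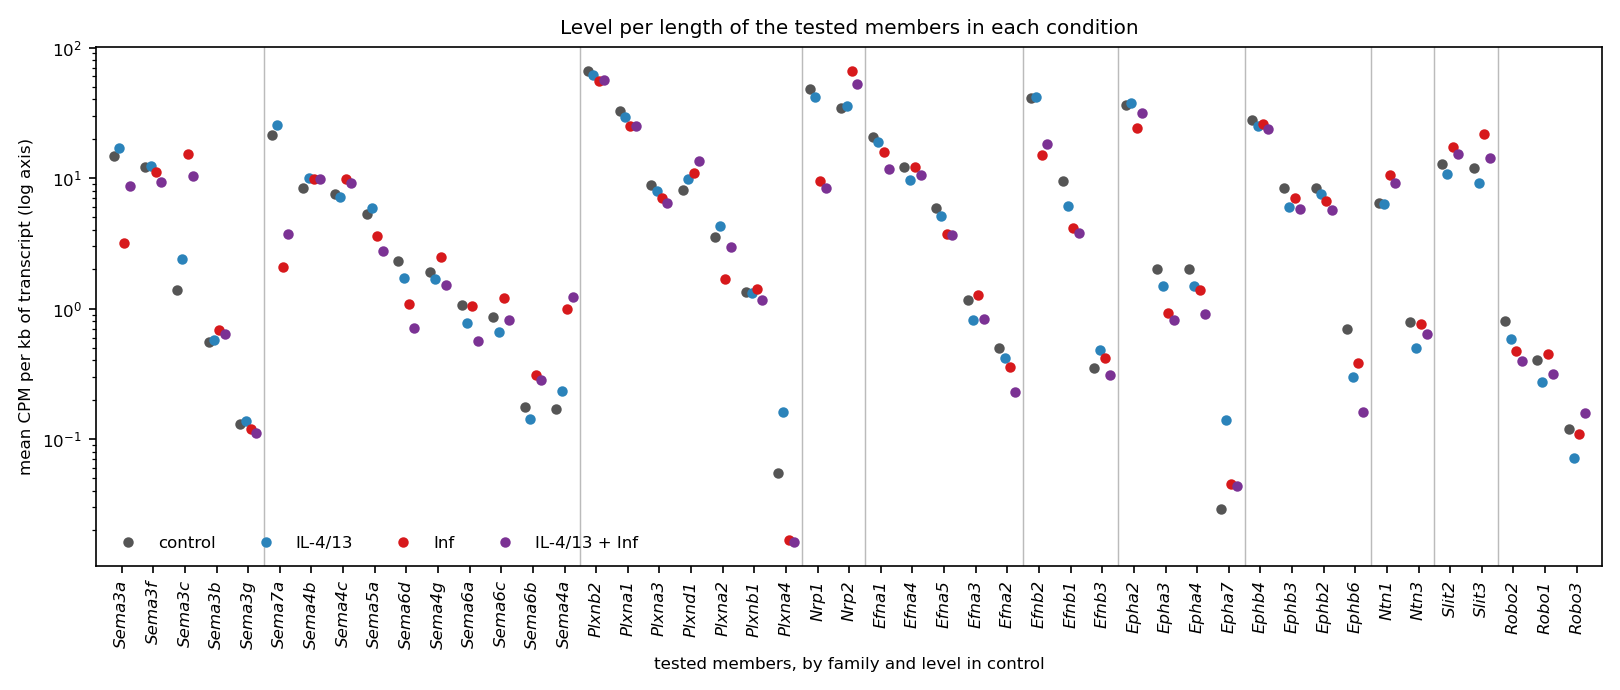
Mean CPM per kilobase of the longest transcript (log axis) for the 47 tested members, grouped by family and ordered by their level in control, with 1 point for each condition and no error shown. Nrp1 and Sema7a lie far lower and Sema3c far higher in both conditions that contain Inf, while the Robo genes stay below 1 CPM per kb throughout.

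The 17 untested members never exceeded 12 counts in a library. Sema3e, the secreted ligand of Plxnd1, had 0 counts in all 12 libraries, which allows a level of up to 0.221 CPM in the shallowest of them for counting error only. Plxnc1, the plexin that binds Sema7a, reached at most 9 counts. Other receptors at this level were Epha1 (at most 12 counts), Plxnb3 (6), Epha5 (6), Epha8 (3), Epha6 (2), Ephb1 (1), Epha10 (1) and the endothelial Robo4 (1). The cues Sema4d (11), Ntn4 (10), Sema3d (10), Slit1 (7), Sema4f (2), Ntn5 (2) and Sema5b (2) completed the group. Thus 9 of the 17 had no more than 3 counts in any library under any of the 4 conditions, and the other 8 were seen with few counts.

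The comparison of Inf with control asked how cytokines of an inflammatory mixture alter these genes, and 31 of the 47 tested members were called: 10 were higher and 21 lower. That is 66% of the tested members, beside 31.6% of all tested genes (16.3% higher and 15.3% lower). The median level of the tested members over all libraries was 19.2 CPM against 24.3 CPM for all tested genes. Adding the same mixture to cells that also received IL-4/13 is a separate comparison on other libraries, and there 8 members were higher and 20 lower, 59.6% beside 24.3% of all tested genes (13.3% higher and 11.0% lower). In both comparisons 8 members rose and 17 fell, where 10.7% of all tested genes rose and 8.40% fell in both. No member was called in opposite directions, and the share of all tested genes called so is not given. Over the 47 members the log2 fold changes of these comparisons had a Pearson correlation of 0.84, beside 0.87 over all 14810 tested genes, each point being a gene, and genes are not independent replicates. The members called only with Inf alone were Ephb3, Ephb6, Plxna1, Plxnb2, Sema4g and Sema6c, and those called only with IL-4/13 present were Epha7, Sema3f and Sema6a, but the interaction was not called for any of these 9.

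**Figure D2:**
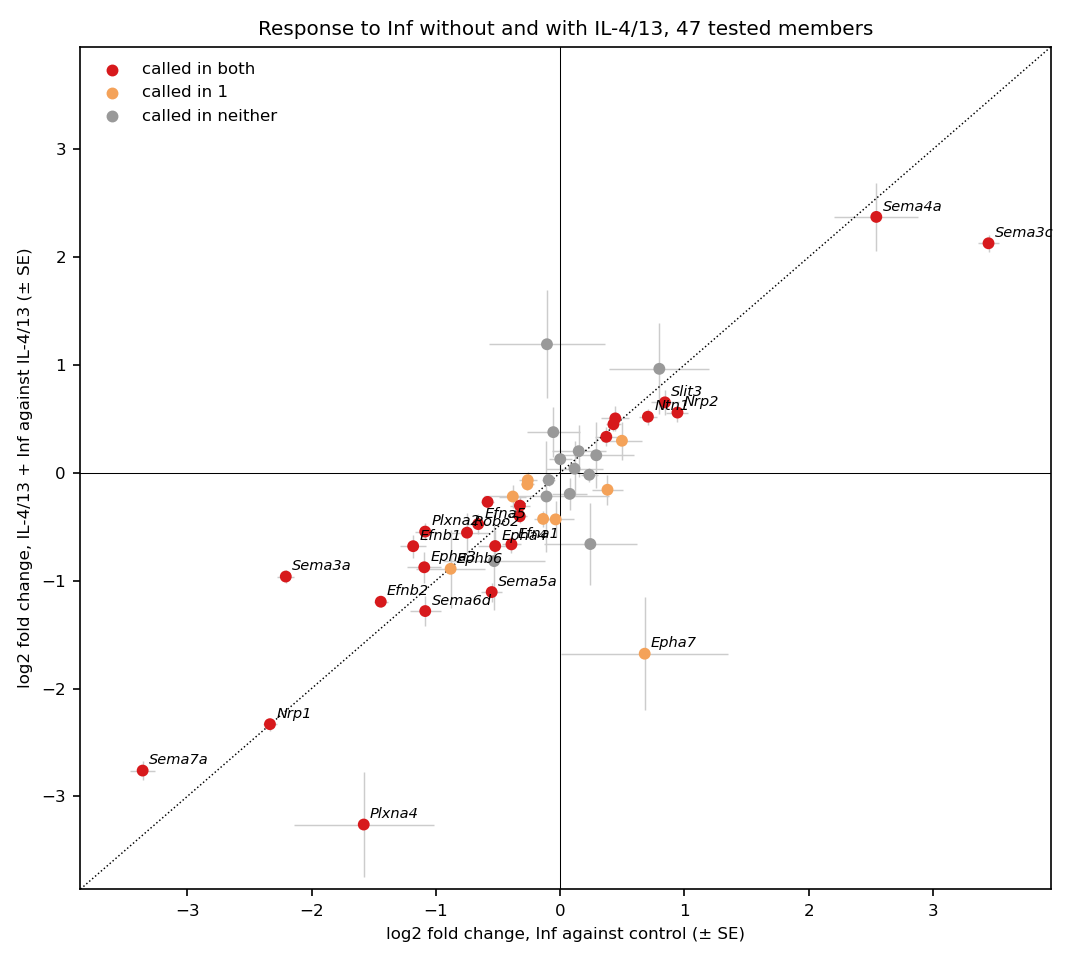
Log2 fold change with Inf in the absence (horizontal axis) and presence (vertical axis) of IL-4/13 for the 47 tested members, with bars of 1 SE, coloured by the number of comparisons in which a member was called, the dotted line marking equal change. Sema7a and Nrp1 lie at the lower left and Sema3c and Sema4a at the upper right, while Sema3a and Sema3c fall off the line toward a smaller change with IL-4/13.

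The neuropilins, binding partners of plexins for class 3 semaphorins, moved in opposite directions with Inf. Nrp1 (ENSMUSG00000025810), the neuropilin that Sema3a prefers and that also binds VEGF-A, read 169, 169 and 185 CPM in the control libraries, 154, 150.3 and 152 with IL-4/13, 34.1, 37.2 and 32.1 with Inf and 29.2, 29.4 and 32.5 with all cytokines. Each library with Inf was far below each library without it, and the fall was 5.04-fold without IL-4/13 (log2 fold change −2.33 ± 0.06, adjusted p = 3.9e-24) and 5.03-fold with it (−2.33 ± 0.06, adjusted p = 7.2e-24). The difference between these responses was 0.00 ± 0.09 on the log2 scale. Nrp2 (ENSMUSG00000025969), the neuropilin of Sema3c and Sema3f, read 238, 209.8 and 246 CPM in control, 236, 232 and 254 with IL-4/13, 497, 456 and 380.1 with Inf and 352, 353 and 358 with both. It rose 1.92-fold with Inf (log2 fold change 0.94 ± 0.09, adjusted p = 4.1e-06) and 1.47-fold when IL-4/13 was present (0.56 ± 0.09, adjusted p = 0.00044). IL-4/13 on top of Inf gave a log2 fold change of −0.33 ± 0.09, adjusted p = 0.02, a call that was lost without Inf replicate 1 or 2 or without IL-4/13 + Inf replicate 1 or 2 (log2 fold changes from −0.42 to −0.24 over all alternatives).

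Nrp1 made up 56.7% to 59.8% of the summed neuropilin level per kilobase of the longest transcript in control and 52.5% to 54.5% with IL-4/13. It made up 11.2% to 13.5% with Inf and 13.2% to 14.3% with IL-4/13 + Inf. The sum of both neuropilins was 82.2 ± 4.9 CPM per kb in control and 75.6 ± 9.2 with Inf (SD, n = 3). These sums differed by less than their spread, while the shares did not overlap. With IL-4/13 the sum was 77.6 ± 1.9 CPM per kb without Inf and 61.04 ± 0.97 with it. These shares and sums depend on the length used. Per kilobase of coding sequence, Nrp1 and Nrp2 stood at 62.9 and 82.7 in control and 12.4 and 159 with Inf. With IL-4/13 they stood at 54.95 and 86.25 without Inf and 10.96 and 127 with it. On that length Nrp2 was the higher of the pair in control too. Mir1903 lies within an exon of Nrp1, and a 0.862% share of the Nrp1 50-base words occurs in other genes, beside 0.749% for Nrp2.

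Of the secreted semaphorins, Sema3a fell and Sema3c rose with Inf. Sema3a (ENSMUSG00000028883), a repellent of sensory axons and the classical Nrp1 ligand, read 83.5, 88.9 and 89.1 CPM in control, 104, 99.8 and 99.97 with IL-4/13, 17.4, 19.7 and 19.4 with Inf and 52.7, 55.3 and 47.5 with IL-4/13 + Inf. The 4 conditions did not overlap, with Inf the lowest and the combination between Inf and control. Inf lowered Sema3a 4.62-fold (log2 fold change −2.21 ± 0.07, adjusted p = 4.5e-22), and when IL-4/13 was present the fall was 1.95-fold (−0.96 ± 0.06, adjusted p = 3.2e-14). Seen the other way, IL-4/13 gave a log2 fold change of 0.21 ± 0.06, adjusted p = 0.016 without Inf, short of the 0.25 threshold, and raised Sema3a 2.75-fold on top of Inf (1.46 ± 0.07, adjusted p = 4.2e-16). The interaction, defined as the IL-4/13 response with Inf less the one without, was 1.25 ± 0.09 on the log2 scale (adjusted p = 1.5e-10). None of the tried settings ended the call. Of the Sema3a 50-base words, 2.58% also occur in another gene, Gm43431.

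Sema3c (ENSMUSG00000028780), which signals mainly through Nrp2 or Nrp1 with plexin A genes or Plxnd1 and is needed to form the cardiac outflow tract, went the other way. It read 7.60, 7.26 and 8.16 CPM in control, 11.8, 12.8 and 14.9 with IL-4/13, 87.3, 85.9 and 77.8 with Inf and 58.0, 55.1 and 58.6 with both. Inf raised it 10.9-fold (log2 fold change 3.45 ± 0.09, adjusted p = 1.7e-24), the largest rise of a tested member with Inf, and 4.37-fold in the presence of IL-4/13 (2.13 ± 0.08, adjusted p = 1.2e-19). IL-4/13 raised Sema3c without Inf (0.77 ± 0.10) and lowered it on top of Inf (−0.55 ± 0.07). Sema3c was the only member called in opposite directions in the IL-4/13 comparisons, and the share of all tested genes called so is not given. The interaction was −1.32 ± 0.12 (adjusted p = 1.6e-08). Of the summed level of Sema3a and Sema3c per kilobase, Sema3c was 8.1% to 9.0% in control, 11% to 13.9% with IL-4/13, 81.3% to 84.5% with Inf and 51.9% to 57.1% with IL-4/13 + Inf. The sum over all 7 class 3 genes stayed within 29.0 ± 1.2 CPM per kb in control and 30.3 ± 1.5 with Inf.

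**Figure D3:**
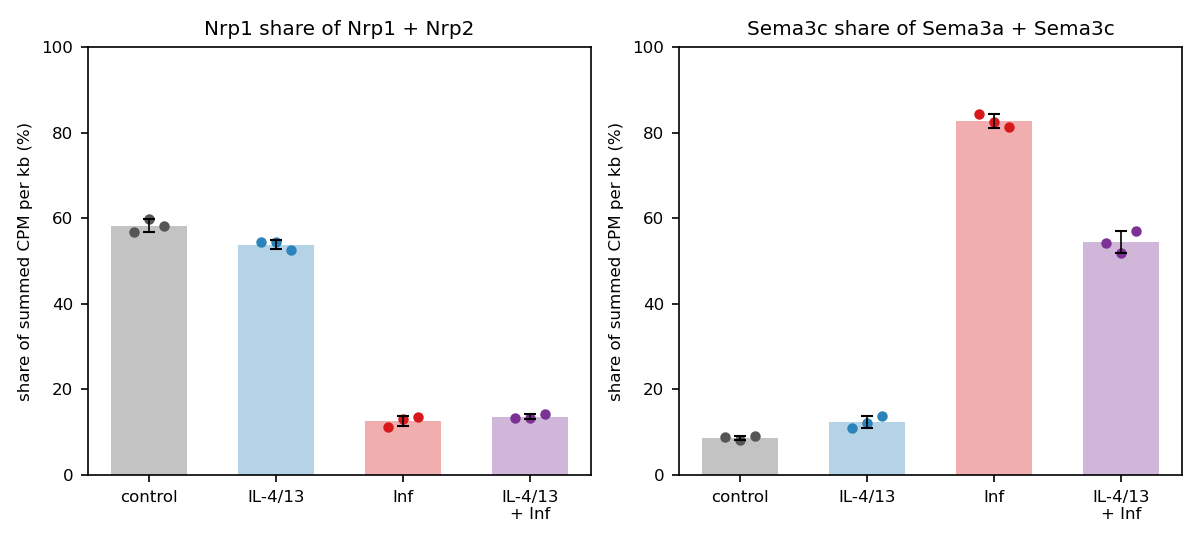
Share of Nrp1 in the summed level of Nrp1 and Nrp2 (left) and share of Sema3c in that of Sema3a and Sema3c (right), in percent. Levels are per kilobase of the longest transcript, with 1 point for each library, bars for the mean of 3 libraries and error bars of 1 SD. Inf lowers the Nrp1 share from above 52% to below 15% whether or not IL-4/13 is present, while the Sema3c share with IL-4/13 + Inf lies between those without Inf and with Inf alone.

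The other class 3 genes changed less. Sema3f, an Nrp2 ligand, was at 41.3 CPM in control, 42.3 with IL-4/13, 37.6 with Inf and 31.5 with all cytokines, and was called lower with IL-4/13 on top of Inf (−0.25 ± 0.08, adjusted p = 0.013) and with Inf on top of IL-4/13 (−0.43 ± 0.07, adjusted p = 3.2e-05). The first of these calls sat at the fold threshold and was lost without Inf replicate 1, Inf replicate 2 or IL-4/13 + Inf replicate 1, with log2 fold changes from −0.31 to −0.21. Sema3b and Sema3g were not called in any comparison, at 1.89 and 0.597 CPM in control.

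The promoter sequences of these genes are shown because Sema3a and Sema3c moved in opposite directions with Inf and responded differently to IL-4/13. Both stretches are taken from RefSeq promoters on GRCm38.p6 and run from 250 bases before to 50 bases after an annotated transcription start, on the plus strand of chromosome 5: chr5:13396534-13396833 for Sema3a and chr5:17574566-17574865 for Sema3c. Capitals mark a match to the STAT6 word, TTC and GAA separated by any 4 bases, which reads the same on both strands.
Sema3a: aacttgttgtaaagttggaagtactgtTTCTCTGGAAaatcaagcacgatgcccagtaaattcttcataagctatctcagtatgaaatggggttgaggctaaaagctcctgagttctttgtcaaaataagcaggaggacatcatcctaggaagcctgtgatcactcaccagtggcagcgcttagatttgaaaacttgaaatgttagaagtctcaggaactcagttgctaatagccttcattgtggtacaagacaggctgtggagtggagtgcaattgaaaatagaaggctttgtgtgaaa
Sema3c: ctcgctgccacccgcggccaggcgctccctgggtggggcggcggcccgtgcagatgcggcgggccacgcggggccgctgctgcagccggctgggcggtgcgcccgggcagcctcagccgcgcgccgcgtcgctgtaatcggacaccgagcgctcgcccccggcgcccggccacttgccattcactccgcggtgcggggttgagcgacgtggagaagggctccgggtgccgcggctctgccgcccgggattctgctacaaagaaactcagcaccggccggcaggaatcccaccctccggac
The Sema3a window, with 41.3% G and C, held 1 match to the STAT6 word that starts 223 bases before the transcription start. The Sema3c window, with 75.7% G and C, held no match to the STAT6 word, to the AP-1 word TGANTCA or to the NF-kB motif. Among all RefSeq promoters of the same length 6.95% held the STAT6 word, 7.81% the AP-1 word and 4.51% the NF-kB motif, and of the 72 promoters matched to 56 members 5, 3 and 7 did. The other member promoters with the STAT6 word were those of Efnb1, Plxna3, Sema3e and Sema4f. No match says only that these letters are not in this window.

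Among the membrane semaphorins, Sema7a (ENSMUSG00000038264) fell most. This GPI-anchored semaphorin, which can act through integrin β1 as well as through Plxnc1, read 67.9, 71.4 and 73.8 CPM in control, 85.0, 91.2 and 73.9 with IL-4/13, 5.52, 8.04 and 6.91 with Inf and 12.3, 13.1 and 11.4 with both. The fall with Inf was 10.3-fold (log2 fold change −3.36 ± 0.10, adjusted p = 3.8e-21) and, with IL-4/13 present, 6.77-fold (−2.76 ± 0.09, adjusted p = 4.8e-20). IL-4/13 raised it on top of Inf by 0.83 ± 0.12 (adjusted p = 6.4e-06), every library of the combination lying above every Inf library, yet none came near the level without Inf. Without Inf the response to IL-4/13 was 0.23 ± 0.08, adjusted p = 0.051, and the interaction of 0.60 ± 0.14 (adjusted p = 0.013) was lost without IL-4/13 + Inf replicate 2, where its adjusted p was 0.061.

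Sema5a, a transmembrane semaphorin with thrombospondin repeats, read 61.3, 52.4 and 58.5 CPM in control, 65.4, 59.6 and 66.2 with IL-4/13, 44.5, 40.8 and 32.3 with Inf and 29.8, 28.4 and 30.7 with both. It fell with Inf, with log2 fold changes of −0.55 ± 0.09 without and −1.11 ± 0.09 with IL-4/13, and IL-4/13 lowered it on top of Inf (−0.40 ± 0.09), while its value without Inf was 0.15 ± 0.08, adjusted p = 0.32. The interaction was −0.55 ± 0.12 (adjusted p = 0.0091). Sema6d was lowered by each treatment: it read 16.0, 14.6 and 14.4 CPM in control, 11.5, 10.2 and 11.4 with IL-4/13, 6.98, 7.84 and 6.30 with Inf and 4.86, 3.598 and 5.20 with both. Its log2 fold change was −0.44 ± 0.12, adjusted p = 0.016 with IL-4/13 alone, a call lost without control replicate 1 or IL-4/13 replicate 2 (from −0.48 to −0.39), and −1.09 ± 0.13, adjusted p = 2e-08 with Inf alone. With all cytokines it was lower than with Inf (−0.64 ± 0.15) and than with IL-4/13 (−1.28 ± 0.14).

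The membrane semaphorins that rose with Inf were of class 4 or Sema6c. Sema4a, known from immune cells, was close to the detection limit without Inf, at 10, 14 and 3 counts in the control libraries and 16, 10 and 10 with IL-4/13, and reached 52, 76 and 38 counts with Inf and 83, 62 and 62 with both. In CPM this is 0.54 in control against 3.15 with Inf, with a log2 fold change of 2.54 ± 0.34, adjusted p = 2.6e-07, and 2.37 ± 0.31, adjusted p = 3.2e-07 when IL-4/13 was present. Sema4c, a Plxnb2 ligand, read 26.8, 26.4 and 35.05 CPM in control and 39.9, 38.6 and 35.5 with Inf (0.37 ± 0.09, adjusted p = 0.001), and 28.6, 29.9 and 25.6 with IL-4/13 against 35.2, 34.7 and 36.4 with both (0.33 ± 0.09, adjusted p = 0.0043). Its exons overlap an antisense gene, D430040D24Rik, and whether counting used strand is not given in the sources used here. Sema4g and Sema6c rose with Inf alone, by 0.38 ± 0.13 and 0.50 ± 0.16, and both fell when IL-4/13 was added to Inf, with log2 fold changes of −0.71 ± 0.13 and −0.58 ± 0.16. Both rises were among the weaker calls: that of Sema4g was lost without control replicate 2, control replicate 3 or Inf replicate 1 (from 0.30 to 0.53) and that of Sema6c without control replicate 3 or Inf replicate 1 (from 0.44 to 0.56). Sema6a fell with IL-4/13 on top of Inf (−0.86 ± 0.16, adjusted p = 0.00013), and its call with Inf on top of IL-4/13 (−0.43 ± 0.17, adjusted p = 0.045) held in 8 of 19 alternatives, being lost among others when any 1 control or IL-4/13 library was left out (from −0.56 to −0.30). Sema4b, another Plxnb2 ligand, was called with IL-4/13 alone at 0.26 ± 0.07, adjusted p = 0.014, just past the fold threshold, and that call was lost without control replicate 1 or 3 or IL-4/13 replicate 2 or 3 (from 0.24 to 0.27). Sema6b was not called in any comparison.

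Promoter windows are printed for Sema4a and Sema4c because these genes were higher with Inf in both comparisons and their windows hold the NF-kB motif, which is marked in capitals together with an AP-1 word in Sema4c. Both lie on the minus strand of GRCm38.p6, at chr3:88459052-88459351 for Sema4a and chr1:36558332-36558631 for Sema4c, are from RefSeq and are written in the direction of transcription.
Sema4a: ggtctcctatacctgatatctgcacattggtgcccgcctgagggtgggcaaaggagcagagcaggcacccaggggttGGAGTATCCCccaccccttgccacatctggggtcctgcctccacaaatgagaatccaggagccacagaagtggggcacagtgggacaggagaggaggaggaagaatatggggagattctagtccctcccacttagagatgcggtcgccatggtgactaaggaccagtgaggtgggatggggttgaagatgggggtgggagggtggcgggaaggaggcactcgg
Sema4c: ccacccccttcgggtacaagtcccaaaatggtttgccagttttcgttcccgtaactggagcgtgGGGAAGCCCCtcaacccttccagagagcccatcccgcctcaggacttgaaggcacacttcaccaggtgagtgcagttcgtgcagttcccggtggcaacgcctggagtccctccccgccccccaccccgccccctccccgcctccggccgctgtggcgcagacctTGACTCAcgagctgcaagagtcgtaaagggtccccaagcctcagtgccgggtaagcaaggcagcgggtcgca
The Sema4a match starts 173 bases before the transcription start, and the other 3 RefSeq promoters of Sema4a held none of the motifs. In Sema4c the NF-kB match starts 186 bases and the AP-1 match 22 bases before the start, and the other RefSeq promoter of Sema4c held none of the motifs. The NF-kB motif was also found in the promoter windows of Sema4b, Sema6c, Efna2, Ephb1 and Ephb2. Of these, Ephb2 was called lower in both Inf comparisons and Sema6c higher with Inf alone. Sema4b and Efna2 were called in neither, and Ephb1 was not among the tested genes. The AP-1 word was also found in the windows of Sema4d and Sema6b. Whether a motif has a part in any response was not tested. The windows of Sema3c, Sema7a, Nrp1 and Nrp2 held none of the motifs searched.

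Plexins, the signaling receptors, mostly fell with Inf. Of 7 tested plexins, 5 were lower and 1 higher with Inf alone, beside 15.3% and 16.3% of all tested genes. With IL-4/13 present, 3 were lower and 1 higher, beside 11.0% and 13.3%. Plxna2, a partner of neuropilins, had the largest fall with Inf among those above 5 CPM in control, at 39.4, 38.2 and 40.1 CPM in control, 49.6, 49.4 and 43.8 with IL-4/13, 20.6, 19.3 and 15.5 with Inf and 31.2, 32.1 and 34.9 with both. It fell with Inf, with log2 fold changes of −1.09 ± 0.09 alone and −0.55 ± 0.08 with IL-4/13, and was higher with IL-4/13 by 0.28 ± 0.08 without Inf and 0.82 ± 0.09 with it. The interaction was 0.54 ± 0.12 (adjusted p = 0.0049). The call with IL-4/13 alone was lost without control replicate 1 or 2 or IL-4/13 replicate 1 or 2 (from 0.25 to 0.34). The call on top of Inf held in all 19 alternatives that kept the 0.25 fold threshold.

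Plxnd1, the receptor of Sema3e and with neuropilins of Sema3c, was the only plexin that rose with each treatment. It read 57.4, 51.9 and 59.8 CPM in control, 68.8, 66.5 and 69.4 with IL-4/13, 81.9, 76.5 and 69.4 with Inf and 95.6, 94.0 and 89.7 with both, so that all treated libraries lay above all control libraries and the combination above all others. The log2 fold changes were 0.27 ± 0.06 and 0.43 ± 0.06 for IL-4/13 and Inf alone, and the interaction was 0.02 ± 0.09. Against Inf the combination was higher by 0.30 ± 0.06, a call lost without Inf replicate 3 (0.24), and the IL-4/13 call was lost without control replicate 2 (0.22), both falling short of the fold threshold. The abundant Plxnb2 went from 433 to 360.5 CPM with Inf (−0.26 ± 0.05, adjusted p = 0.00012), a call at the fold threshold that was lost without control replicate 3 or Inf replicate 3 (from −0.31 to −0.21). Plxna1 went from 297 to 228 CPM (−0.38 ± 0.11, adjusted p = 0.019), not called when only the compared groups were fitted. Plxna3 went from 61.01 to 48.7 CPM (−0.32 ± 0.08, adjusted p = 0.0021), a call lost without Inf replicate 3 (from −0.40 to −0.22), and Plxnb1 was not called in any comparison. Plxna4 was scarce, with 8, 16 and 11 counts in control, 28, 36 and 33 with IL-4/13, 1, 7 and 4 with Inf and 2, 7 and 2 with both. It was called higher with IL-4/13 (1.55 ± 0.40, adjusted p = 0.011) and lower with Inf (−1.58 ± 0.56, adjusted p = 0.024 alone and −3.26 ± 0.49, adjusted p = 2.9e-06 with IL-4/13), but the first of these calls was lost without control replicate 1 or IL-4/13 replicate 2 or 3 (from 1.32 to 1.88 over the alternatives), and the second was lost without control replicate 2 or Inf replicate 1 (from −2.09 to −1.22). An antisense gene, Plxna4os3, overlaps its exons.

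**Figure D4:**
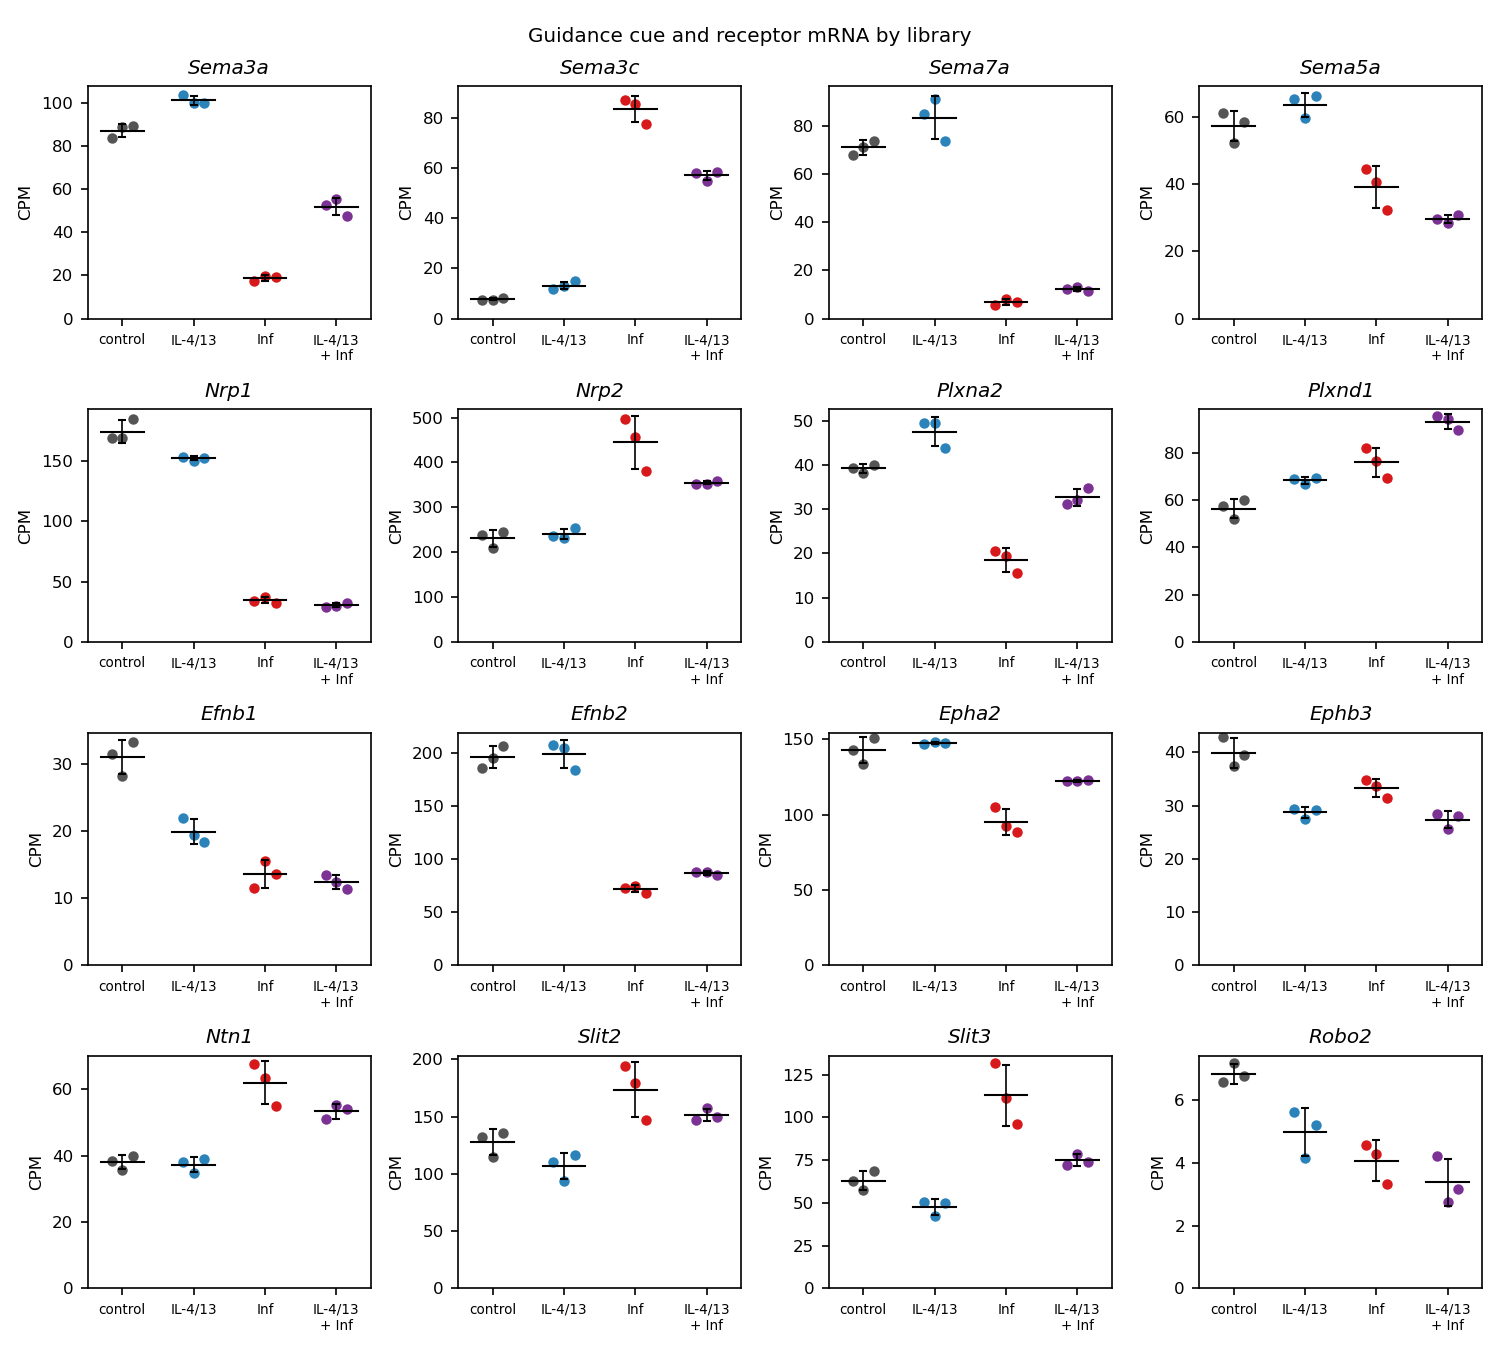
CPM of 16 members in each of the 12 libraries on linear axes from 0, with 1 point for each library, horizontal lines for the mean of 3 libraries and error bars of 1 SD. Sema3a, Sema7a, Nrp1, Plxna2, Efnb1 and Efnb2 are lower and Sema3c, Nrp2, Ntn1, Slit2 and Slit3 higher in the Inf libraries than in control, and for Sema3a the IL-4/13 + Inf libraries lie between Inf and control.

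Of the 8 tested ephrins, the membrane ligands of Eph receptors, 4 fell with Inf in both comparisons (Efna1, Efna5, Efnb1 and Efnb2), beside 8.40% of all tested genes. None was called higher with Inf, where 10.7% of all tested genes rose in both comparisons. Efnb2 (ENSMUSG00000001300), a ligand of EphB receptors and of EphA4, read 186, 196 and 207 CPM in control, 208, 206 and 184 with IL-4/13, 73.2, 74.8 and 68.5 with Inf and 88.3, 88.0 and 84.8 with both. Inf lowered it 2.72-fold (−1.44 ± 0.05, adjusted p = 6.4e-20) and, with IL-4/13, 2.29-fold (−1.20 ± 0.05, adjusted p = 7.2e-18). The combination was 0.27 ± 0.06 above Inf alone, a call lost without Inf replicate 3 (0.24). Efnb1, the X-linked ephrin B gene, read 31.5, 28.3 and 33.3 CPM in control, 21.9, 19.4 and 18.3 with IL-4/13, 11.5, 15.6 and 13.6 with Inf and 13.4, 12.4 and 11.3 with both. Either treatment alone lowered it, with log2 fold changes of −0.64 ± 0.10 for IL-4/13 and −1.18 ± 0.10 for Inf, whereas IL-4/13 on top of Inf gave −0.14 ± 0.11, adjusted p = 0.43. The interaction of 0.50 ± 0.15 had an adjusted p of 0.059 and was not called. Summed over its 3 genes the ephrin B level was 50.8 ± 2.6 CPM per kb in control and 19.6 ± 0.91 with Inf. Among ephrin A genes, Efna1, a high-affinity ligand of Epha2, was lowered with Inf (−0.39 ± 0.07, adjusted p = 6.8e-05) and again by IL-4/13 on top of it (−0.42 ± 0.08, adjusted p = 0.00016), and Efna5 fell with Inf in both comparisons (−0.66 ± 0.09 and −0.48 ± 0.10). Efna4 was called lower with IL-4/13 alone (−0.32 ± 0.09, adjusted p = 0.034), which was lost without control replicate 1 or 3 or IL-4/13 replicate 1 or 3 (from −0.39 to −0.24), and its exons overlap an antisense gene, 4731419I09Rik. Efna2, Efna3 and Efnb3 were not called in any comparison.

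Of the tested Eph receptors, 3 of 4 EphA and 3 of 4 EphB genes fell with Inf alone, beside 15.3% of all tested genes, and none was called higher. With IL-4/13 present, 4 of 4 EphA and 1 of 4 EphB genes fell, beside 11.0% of all tested genes. Epha2, the most abundant EphA receptor, read 143, 134 and 151 CPM in control, 147, 148 and 148 with IL-4/13, 105, 92.6 and 88.5 with Inf and 122, 122 and 123 with both. It fell with Inf (−0.58 ± 0.05, adjusted p = 3.2e-10) and less with IL-4/13 present (−0.27 ± 0.05, adjusted p = 0.00019), and IL-4/13 raised it on top of Inf (0.36 ± 0.06, adjusted p = 1e-05) but not without Inf (0.05 ± 0.05, adjusted p = 0.69). The difference between the IL-4/13 responses was 0.31 ± 0.08 (adjusted p = 0.016), a call lost without control replicate 3 at an adjusted p of 0.079. Epha3 read 10.9, 10.7 and 12.4 CPM in control, 9.38, 7.32 and 8.53 with IL-4/13, 4.79, 5.94 and 5.03 with Inf and 4.41, 4.61 and 4.79 with both. The fall with Inf was −1.09 ± 0.14, adjusted p = 8.8e-08. Epha4, which binds ephrins of both kinds, read 13.1, 11.8 and 12.8 CPM in control, 8.95, 10.4 and 8.75 with IL-4/13, 10.6, 7.84 and 8.06 with Inf and 7.14, 5.17 and 5.06 with both, and was lower in all 4 comparisons, with log2 fold changes of −0.52 ± 0.13 for Inf alone and −0.58 ± 0.15 for IL-4/13 on top of Inf. For IL-4/13 alone the values were −0.42 ± 0.13, adjusted p = 0.039 for Epha3 and −0.43 ± 0.13, adjusted p = 0.044 for Epha4. DESeq2 called neither, and each was lost when any 1 control library was left out and without IL-4/13 replicate 3, Epha3 also without IL-4/13 replicate 2 and Epha4 also without IL-4/13 replicate 1 (adjusted p from 0.021 to 0.21 and from 0.011 to 0.18).

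Epha7 counts were low, at 4, 3 and 3 in control, 12, 20 and 12 with IL-4/13, 2, 10 and 5 with Inf and 6, 2 and 7 with both. It was called higher with IL-4/13 alone (2.18 ± 0.57, adjusted p = 0.012), but not without control replicate 3 or IL-4/13 replicate 2 (log2 fold changes from 1.88 to 2.42). It was called lower with Inf on top of IL-4/13 (−1.68 ± 0.52, adjusted p = 0.013), a call lost without IL-4/13 replicate 2 or IL-4/13 + Inf replicate 2 (from −2.11 to −1.29).

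IL-4/13 lowered 2 EphB receptors in both of its comparisons. Ephb3 read 42.9, 37.4 and 39.4 CPM in control, 29.4, 27.5 and 29.1 with IL-4/13, 34.8, 33.8 and 31.5 with Inf and 28.5, 25.5 and 28.1 with both. The log2 fold change with IL-4/13 was −0.48 ± 0.07, adjusted p = 3.9e-05 without Inf and −0.28 ± 0.08, adjusted p = 0.0057 with it, which was lost without IL-4/13 + Inf replicate 2 (from −0.32 to −0.24), and the call with Inf alone (−0.26 ± 0.07, adjusted p = 0.0044) was lost without control replicate 1 or Inf replicate 3 (from −0.30 to −0.20). Ephb6, a receptor whose kinase domain is inactive, was scarce, at 47, 35 and 50 counts in control, 22, 16 and 16 with IL-4/13, 28, 21 and 24 with Inf and 11, 12 and 9 with both. Its log2 fold changes were −1.21 ± 0.29, adjusted p = 0.0065 with IL-4/13 alone and −1.22 ± 0.34, adjusted p = 0.0099 on top of Inf, the second call being lost without Inf replicate 1 (from −1.43 to −1.0015). Its fall with Inf alone (−0.88 ± 0.28, adjusted p = 0.011) was lost without control replicate 3 or Inf replicate 2 (from −1.09 to −0.66). Ephb2 fell with Inf in both comparisons (−0.33 ± 0.06 and −0.40 ± 0.06). The most abundant EphB receptor, Ephb4, was not called in any comparison, at 120.4, 109, 113 and 104 CPM in the 4 conditions.

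The secreted cues Ntn1, Slit2 and Slit3 rose with Inf in both comparisons. Ntn1 (ENSMUSG00000020902), the best-known netrin, read 38.3, 35.7 and 40.0 CPM in control, 38.1, 34.7 and 39.1 with IL-4/13, 67.7, 63.5 and 55.0 with Inf and 51.0, 55.4 and 54.0 with both, a rise with Inf of 0.71 ± 0.07, adjusted p = 1.9e-09 alone and 0.52 ± 0.07, adjusted p = 1.1e-06 with IL-4/13. Slit2 read 132, 115 and 136 CPM in control, 110.4, 94.0 and 116 with IL-4/13, 194, 179.6 and 147 with Inf and 147, 158 and 150 with both, with log2 fold changes of 0.44 ± 0.11, adjusted p = 0.0093 and 0.50 ± 0.11, adjusted p = 0.0065 for Inf in these comparisons. For Slit3 the values were 62.8, 57.2 and 68.5 CPM in control, 50.6, 42.0 and 50.1 with IL-4/13, 132, 111 and 96.2 with Inf and 72.1, 78.6 and 73.9 with both. Slit3 rose with Inf in both comparisons, by 0.84 ± 0.11 and 0.65 ± 0.11, and IL-4/13 lowered it on top of Inf (−0.59 ± 0.11, adjusted p = 0.0018). Without Inf the Slit3 value was −0.40 ± 0.12, adjusted p = 0.058, not called, though its 3 IL-4/13 libraries lay below its 3 control libraries. With Inf replicate 3 left out of the fit, this value was called (−0.40, adjusted p = 0.005). The Slit3 interaction was −0.19 ± 0.16. In each of these cues all 3 Inf libraries lay above the 3 control libraries, and Inf replicate 3 was the lowest of them. The slit level summed per kilobase was 24.9 ± 2.2 in control and 39.1 ± 5.8 with Inf.

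None of the Robo receptors was called higher. Robo2 went from 6.85 to 4.07 CPM with Inf (−0.75 ± 0.17, adjusted p = 0.0008) and from 4.997 to 3.38 with IL-4/13 present (−0.56 ± 0.19, adjusted p = 0.021), both called lower, the second call being lost without IL-4/13 replicate 1 or 3 or IL-4/13 + Inf replicate 2 or 3 (from −0.76 to −0.42), and Robo1 and Robo3 were not called in any comparison. Ntn3, whose exons overlap Tbc1d24 on the same strand so that reads may be shared, was not called either.

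IL-4/13 alone reached 13 of the 47 tested members, 6 higher and 7 lower, or 27.7% beside 5.35% of all tested genes (2.78% higher and 2.57% lower). This count depended on single libraries, being 6 without control replicate 1, 7 without IL-4/13 replicate 2 and 8 without control replicate 3. The shares of all tested genes called in these fits are not given, so the smaller counts cannot be set beside a background. On top of Inf, in other libraries, IL-4/13 reached 19 members, of which 6 were higher and 13 lower. That was 40.4% beside 14.6% of all tested genes (7.55% higher and 7.00% lower). Plxna2 and Plxnd1 were higher in both, and Epha4, Ephb3, Ephb6 and Sema6d lower in both, beside 1.64% and 1.44% of all tested genes. The interaction was called for 6 members, 12.8% beside 3.11% of all tested genes (1.52% higher and 1.59% lower). It was positive for Sema3a, Sema7a, Plxna2 and Epha2 and negative for Sema3c and Sema5a. The comparisons of Inf with control and of IL-4/13 + Inf with Inf share the Inf libraries, so their values stand side by side only: −2.21 and 1.46 for Sema3a, −3.36 and 0.83 for Sema7a, −1.09 and 0.82 for Plxna2, 3.45 and −0.55 for Sema3c. Without Inf replicate 3, the calls for IL-4/13 on top of Inf lost Efnb2 and Plxnd1 and gained 6 members, all lower: Efna3, Ephb2, Ntn1, Plxnb1, Robo1 and Slit2. The interaction was then also called for Nrp2 (−0.48), Efnb1 (0.51) and Sema3f (−0.34), and IL-4/13 against control for Slit3 (−0.40) and Sema6a (−0.47). With all cytokines, Sema3a, Sema7a and Plxna2 still lay below and Sema3c above their levels with IL-4/13 alone. Over the 47 members, the log2 fold changes with IL-4/13 without and with Inf had a Pearson correlation of 0.29 and a Spearman correlation of 0.46, beside a Pearson correlation of 0.40 over all tested genes.

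**Figure D5:**
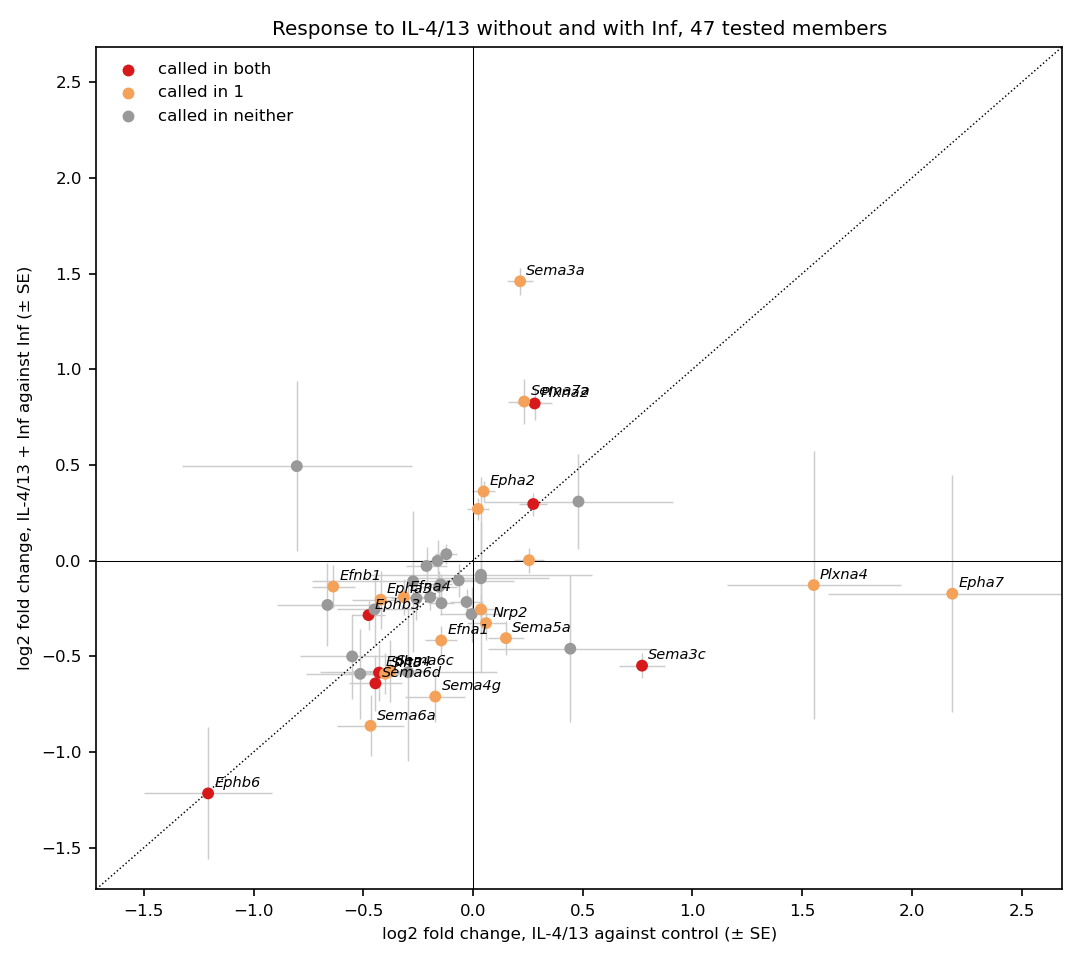
Log2 fold change with IL-4/13 in the absence (horizontal axis) and presence (vertical axis) of Inf for the 47 tested members, with bars of 1 SE, coloured by the number of comparisons in which a member was called, the dotted line marking equal change. Sema3a, Sema7a and Plxna2 lie well above the line and Sema3c below it, while Plxna4 and Epha7 at the right have few counts and wide errors.

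Partner genes in 3 lists were read beside the members. Of 23 tested partners of semaphorins and plexins, 4 were higher and 7 lower with Inf alone, a share of 47.8% beside 31.6% of all tested genes, and 3 and 7 with IL-4/13 present, 43.5% beside 24.3%. Of the constitutively active GTPases that bind plexins, Rnd1 went from 19.5 to 63.9 CPM (1.71 ± 0.07, adjusted p = 4.6e-19) and Rnd3 from 62.9 to 118 (0.91 ± 0.05, adjusted p = 3.9e-15). Rnd2 was not called, at 10.4 CPM in control and 9.87 with Inf (−0.07 ± 0.13, adjusted p = 0.7). Rras, a small GTPase that plexins inactivate, rose by 0.78 ± 0.06. Dpysl3, a collapsin response mediator, fell (−0.81 ± 0.04), as did Met, a co-receptor in plexin B signaling (−0.66 ± 0.06). With IL-4/13 this list had 0 higher and 3 lower without Inf (13.0% beside 5.35% of all tested genes) and 0 and 4 with it (17.4% beside 14.6%), and 1 negative interaction, Rasa1 (−0.26 ± 0.06, adjusted p = 0.012), lost without control replicate 1, IL-4/13 replicate 1, Inf replicate 2 or Inf replicate 3 (from −0.28 to −0.24).

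Of 24 tested partners of netrins, slits and Robo receptors, 5 were higher and 9 lower with Inf alone, a share of 58.3% beside 31.6% of all tested genes, and 3 and 7 with IL-4/13 present, 41.7% beside 24.3%. The netrin receptors fell while Ntn1 rose: Unc5c went from 13.0 to 4.20 CPM (−1.63 ± 0.16, adjusted p = 8.3e-10), Unc5b from 177 to 136 (−0.39 ± 0.05, adjusted p = 6.7e-07) and neogenin, Neo1, from 162 to 125 (−0.37 ± 0.05, adjusted p = 5.7e-07), while Dcc never exceeded 3 counts. Srgap3 and Enah, which link guidance receptors to actin, rose by 0.69 ± 0.08 and 0.87 ± 0.05, while Vasp of the same list fell (−0.32 ± 0.04, adjusted p = 3.9e-07). Ntng2, a membrane-anchored netrin relative outside the member rule, had 0 counts in all 6 libraries without Inf and 2.22 CPM with Inf, at least 12.4-fold higher against a floor of 3 counts in each control library. Ntng1, its relative, was at 3.05, 2.59, 0.824 and 2.63 CPM in the 4 conditions and fell with Inf (−1.91 ± 0.28, adjusted p = 1.6e-06) but rose with IL-4/13 on top of Inf (1.69 ± 0.28, adjusted p = 3.9e-05), with an interaction of 1.92 ± 0.37, adjusted p = 0.0014. With IL-4/13 the list had 0 higher and 3 lower without Inf (12.5% beside 5.35% of all tested genes), and 1 higher and 4 lower with it (20.8% beside 14.6%).

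Of 18 tested genes of Eph and ephrin signaling, 3 were higher and 2 lower with Inf alone, a share of 27.8% beside 31.6% of all tested genes, and 3 and 0 with IL-4/13 present, 16.7% beside 24.3%, so neither share was above the background. Lmo4, a LIM-only adaptor, rose from 135 to 363 CPM (1.42 ± 0.04, adjusted p = 1.3e-22), and Rgs3 and Pdzrn3, which bind ephrin B tails, rose by 0.68 ± 0.11 and 0.48 ± 0.06. Tiam1, a Rac exchange factor that Eph receptors engage, rose with IL-4/13 by 0.59 ± 0.07 without and 0.47 ± 0.07 with Inf, as did Ngef, the exchange factor ephexin (0.87 ± 0.20 and 0.61 ± 0.20), the second call for Ngef being lost without Inf replicate 2 or IL-4/13 + Inf replicate 1 or 2 (from 0.40 to 0.75). The list had 2 higher and 2 lower with IL-4/13 alone (22.2% beside 5.35% of all tested genes) and 3 and 1 on top of Inf (22.2% beside 14.6%).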

How the data were processed

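Polyadenylated RNA of 3T3-L1 fibroblasts was made into 12 stranded libraries. The authors deposited raw whole-number counts per Ensembl gene, not normalized. Per the submitters' processing notes STAR, featureCounts and GRCm39 were used. Versions, annotation and strand setting are not given in the sources used here, so reads of overlapping genes may be misassigned. Doses and the time point are from the study's text, and conditions from the sample labels.

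The counts were filtered with filterByExpr of edgeR 4.0.16 (minimum count 10, minimum total count 15), scaled by TMM and fitted in 1 robust quasi-likelihood model of all 12 libraries. P values were adjusted over 14810 genes by the Benjamini-Hochberg method, SE is the log2 fold change divided by the square root of F, and the thresholds for a call were 0.05 on the adjusted p and 0.25 on the log2 fold change. The study's methods name DESeq2, which was run as an alternative (version 1.42.0, in R 4.3.3). The alternatives counted for single genes all kept the 0.25 threshold. CPM are counts over the tested-gene total times the TMM factor. Level per length used the longest transcript of GENCODE on GRCm38, from which shared and overlapping genes were also taken. Promoters and their coordinates are from RefSeq. A limit for a count of 0 is 3 counts and covers counting error only.

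The rule for members and the lists were set with earlier results of these data known, while the rule itself used symbols alone. Values in each library are given for most members called with IL-4/13 in either comparison or in the interaction. They are not printed for Efna1, Efna4, Sema3f, Sema4b, Sema4g, Sema6a and Sema6c. Library values are also given for up to 8 rises and 8 falls called in both Inf comparisons with at least 5 CPM. The 2 highest members of each family are given with their level in control. Other members and partner genes were named after their values were seen.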

Additional observations from a re-analysis of the deposited data

Results flagged for a closer look

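The response to IL-4/13 with Inf differed from the response without Inf for 6 members, as tested by the interaction contrast in edgeR. The difference was 1.2451 (log2) for Sema3a and 0.5982 for Sema7a, 2 semaphorins that were lowest with Inf alone. It was 0.5405 for the plexin Plxna2 and 0.3133 for the receptor Epha2. It was −1.319 for Sema3c, which IL-4/13 raised without Inf and lowered with it, and −0.5549 for Sema5a. In these 6 genes the 3 IL-4/13 + Inf libraries did not overlap the 3 Inf libraries, and their adjusted p-values for the difference were 1.5e-10 for Sema3a, 1.6e-08 for Sema3c, 0.0091 for Sema5a, 0.0049 for Plxna2, 0.013 for Sema7a and 0.016 for Epha2. The call for Sema7a was lost without IL-4/13 + Inf replicate 2 (adjusted p = 0.061) and that for Epha2 without control replicate 3 (adjusted p = 0.079).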

How the results depend on the processing

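No alternative turned the direction of a called value. With a log2 fold change threshold of 1, members called numbered 3 for IL-4/13 against control, 11 for Inf against control, 2 for IL-4/13 + Inf against Inf, 9 for IL-4/13 + Inf against IL-4/13 and 2 for the interaction. The shares of all tested genes at this threshold are not given, so these counts cannot be set beside a background. Leaving out 1 library at a time, the counts ran from 6 to 15, 27 to 31, 16 to 23, 25 to 28 and 5 to 9 in the same order. The count for IL-4/13 against control, 13 with all libraries, depended on single libraries. It was 6 without control replicate 1, 7 without IL-4/13 replicate 2 and 8 without control replicate 3. The shares of all tested genes called with 1 library left out are not given, and the cause of these smaller counts was not tested. DESeq2 called 9, 31, 19, 27 and 7 members, with an adjusted p for 39, 47, 44, 47 and 31 of the 47. The replicate block gave 12, 31, 19, 28 and 6. The replicate numbers do not pair the libraries: correlations of same-numbered libraries ran from −0.146 to 0.054, and 0 of 12 libraries correlated best with their own number. Of 6273 values of single genes under these settings, 6107 kept their side of the threshold. Depth limits the scarce members, for which few counts leave wide errors.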
